A study of Mus musculus with 7 samples.

Results

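The 318 very long genes were the autosomal protein-coding genes that span 400 kb or more from start to end in RefSeq for GRCm38.p6, without those whose symbols begin with Slit, Robo, Kcn, Slc, Col or Adam. They made up 318 of 20665 autosomal protein-coding genes, and 20 equally long genes were left out by their symbols. The histone mark H3K4me1 was read zygote by zygote in the mouse, by CUT&Tag (an antibody brings the transposase Tn5 to marked chromatin) joined with a transcriptome of each cell, and only the mark's fragments were used here. Of the 7 samples in the series, 2 were H3K4me1 batches, each from the zygotes of 1 mouse, labelled as without treatment, with no strain given in their labels. The females had received 5 IU of pregnant mare serum gonadotropin and then, after 46 to 48 h, 5 IU of human chorionic gonadotropin, and zygotes were taken at 23 after the second hormone (the unit is not stated), stripped of cumulus cells and zona pellucida. Both batches were deposited in 1 table of fragments, which held 14 libraries with at least 5000 fragments, 3 of them named 4 and 11 named 5. Which batch a library belongs to is not stated in the labels, so the table is 1 pooled sample: no test between samples was possible, and intervals are exact 95% intervals that cover counting error only. The table gives no molecular identifiers, so fragments are not known to be independent molecules.

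H3K4me1 is a methyl mark on the tail of histone H3 that is best known from enhancers, the broad surroundings of active promoters and the bodies of some transcribed genes. Very long genes consist almost entirely of intron. Many of them encode adhesion molecules, receptors and channels of neurons, and several lie at common fragile sites, stretches that break when replication is slowed. In the zygote, most RNA still comes from the egg, and transcription from the embryo's own genome is only beginning.

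Start-site sequences could be matched for 243 of the 318 genes, and for 202 of these the start listed by RefSeq lay within 5 kb of the start of the gene. The 300-base promoter windows of these 202 genes held a median of 19.5 CG pairs, against 14 in those of 15512 other autosomal coding genes. At least 10 CG pairs were found in 155 of the 202 windows (76.7%), against 59.2% of the other windows. The motif CG, which reads the same on both strands, occurred at least once in 95% of all 15714 windows. The 250 bases before the start of 5 genes are printed 5′ to 3′ (RefSeq, GRCm38.p6) with each CG pair in capitals. They were chosen after their values were seen, from the named genes whose listed start is the outer end of the gene, to set CG-rich and CG-poor starts beside high and low gene levels.
Camta1, chr4:151861769-151862018, minus strand: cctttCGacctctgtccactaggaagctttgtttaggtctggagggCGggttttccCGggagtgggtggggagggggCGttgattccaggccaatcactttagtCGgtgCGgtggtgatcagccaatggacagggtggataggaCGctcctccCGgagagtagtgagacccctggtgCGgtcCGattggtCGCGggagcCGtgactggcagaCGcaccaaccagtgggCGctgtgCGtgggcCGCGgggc
Agap1, chr1:89454561-89454810, plus strand: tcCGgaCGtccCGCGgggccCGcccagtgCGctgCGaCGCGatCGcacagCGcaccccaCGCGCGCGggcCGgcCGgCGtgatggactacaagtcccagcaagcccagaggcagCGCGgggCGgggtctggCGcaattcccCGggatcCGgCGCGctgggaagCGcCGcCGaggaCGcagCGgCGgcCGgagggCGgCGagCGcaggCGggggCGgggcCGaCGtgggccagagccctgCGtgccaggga
Cntnap2, chr6:45059811-45060060, plus strand: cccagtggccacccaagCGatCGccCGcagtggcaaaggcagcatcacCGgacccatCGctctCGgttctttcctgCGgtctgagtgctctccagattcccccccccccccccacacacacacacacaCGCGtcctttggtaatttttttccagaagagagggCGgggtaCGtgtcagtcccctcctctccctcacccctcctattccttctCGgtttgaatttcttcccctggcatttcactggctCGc
Zfp804b, chr5:7344379-7344628, minus strand: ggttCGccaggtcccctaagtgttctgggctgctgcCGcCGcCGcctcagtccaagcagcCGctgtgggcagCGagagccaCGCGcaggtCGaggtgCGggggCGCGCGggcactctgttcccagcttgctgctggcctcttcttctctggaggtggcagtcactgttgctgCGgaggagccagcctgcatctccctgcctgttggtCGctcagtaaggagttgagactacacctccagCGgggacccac
Skint5, chr4:113999504-113999753, minus strand: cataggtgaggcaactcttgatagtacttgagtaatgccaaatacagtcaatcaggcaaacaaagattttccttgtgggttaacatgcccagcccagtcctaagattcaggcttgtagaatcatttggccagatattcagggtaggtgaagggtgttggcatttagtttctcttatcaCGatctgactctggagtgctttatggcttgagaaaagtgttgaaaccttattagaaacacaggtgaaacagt

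Agap1, with 41 CG pairs before its start, and Camta1, with 18, were among the 8 genes with the most H3K4me1 per base, while Skint5, with 1, had the least. Genes with a like number of CG pairs in the printed bases could differ in level. Zfp804b, with 16 pairs there, stood at 0.520 of the autosomal mean, and Camta1, with 18, at 1.89 times that mean. In the 300-base windows, however, Zfp804b held 17 pairs and Camta1 held 28, so the likeness was limited to the printed bases. Cntnap2, one of the longest genes, had 13 pairs in the printed bases and stood at 0.617. Over all 202 genes, the median gene level was 0.970 where the 300-base window held 10 or more pairs and 0.899 where it held fewer. Within 1 kb of the listed starts, the 202 genes together stood at 1.04 (0.910 to 1.18), and the starts of other coding genes at 1.09 (1.07 to 1.10). Single starts held too few fragments to be compared. Within 2.5 kb of the start, Agap1 had 6 fragments and Camta1, Zfp804b and Skint5 had 2 each.

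The 14 libraries gave 1404305 fragments, from 7106 in library 5-11 to 197312 in library 5-4. The level of a gene is its number of fragment midpoints per base, divided by the autosomal mean, 5.62 fragments per 10 kb. Values per library are given over the 13 libraries with at least 20000 fragments. As a check of the label, the bodies of 9 oocyte marker genes together stood at 1.92 (1.61 to 2.27). Those of 8 cumulus and granulosa cell markers together stood at 0.716 (0.588 to 0.864, with Areg at 0 fragments). Those of 6 blood cell markers together stood at 1.18 (0.999 to 1.39). The median gene stood at 1.08 in the cumulus and granulosa list and at 1.29 in the blood list. The oocyte list had the highest median. The cumulus and granulosa list was thus below 1 as a sum, but not by its median gene. These are levels of a histone mark, not of RNA, and what other cells added to the very long genes was not tested. No library without the antibody was analysed here.

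Very long genes carried less H3K4me1 per base than shorter genes. They span 222 Mb, or 9.23% of the autosomes, and held 112213 fragments, or 8.31% of those on autosomes. Together they stood at 0.900 (0.895 to 0.906), against 1.11 (1.11 to 1.12) in the 607 genes of 200 to 400 kb, 1.22 in genes of 100 to 200 kb, 1.27 in genes of 50 to 100 kb and 1.37 in genes of 10 to 50 kb. The level thus fell with each class of gene length, and the very long genes were the only class of these below the autosomal mean. Whether they are called below or above depends on the base: against the median of the autosomal 10 kb bins that hold a fragment, in place of the mean, they stood at 1.01. The ratio to other genes does not use that base. It was 0.809 (0.802 to 0.816) against genes of 200 to 400 kb and 0.657 (0.652 to 0.662) against genes of 10 to 50 kb. The 20 long genes left out by symbol stood at 0.920 (0.897 to 0.942), and the ratio of the very long genes to them was 0.979 (0.955 to 1.00).

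In all 13 single zygotes with at least 20000 fragments, genes of 200 to 400 kb were lower than those of 10 to 200 kb, and very long genes were lower still. The classes of 50 to 100 kb and 100 to 200 kb did not keep their order in every library. In libraries 5-1 and 5-3, genes of 100 to 200 kb were above those of 50 to 100 kb, at 1.31 against 1.29 and at 1.27 against 1.24. Very long genes stood at 0.842 in library 4-5, the lowest, at 0.894 in the median library and at 0.984 in library 5-3, the highest, so all 13 libraries were under 1. Their ratio to genes of 200 to 400 kb ranged from 0.780 to 0.881 and was below 1 in all 13 libraries. Library 5-11, the shallow one, gave 0.830 (0.760 to 0.905). Libraries named 4 together gave 0.868 (0.856 to 0.880) and those named 5 gave 0.907 (0.902 to 0.913).

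**Figure D1:**
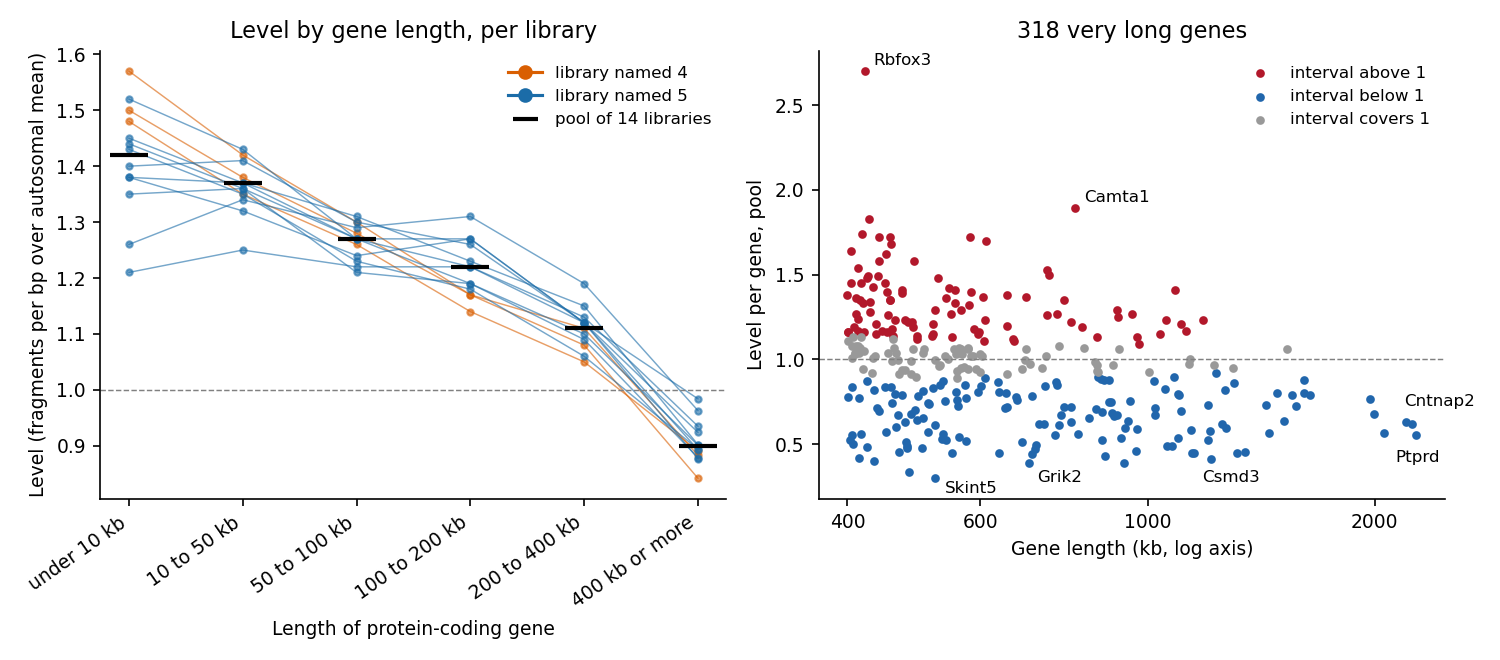
Left, H3K4me1 level (fragments per bp over the autosomal mean) of autosomal protein-coding genes by length class in each of the 13 libraries with at least 20000 fragments (points and lines) and in the pool of 14 (black bars). Right, pooled level of each of the 318 very long genes against its length on a log axis, coloured by whether its exact 95% interval lies above, below or across 1. The very long class lies under 1 in each library shown, and the genes of 1000 kb or more lie mostly under 1.

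Single genes differed widely. The level ran from 0.300 in Skint5 to 2.70 in Rbfox3, an 8.98-fold range, with a median of 0.943 and an interval from 0.528 to 1.38 between the 10th and 90th percentiles. The standard deviation over the 318 genes was 0.334, where counting error alone gives 0.0542, so the spread was wider than counting error gives. The interval lay above 1 in 97 genes (30.5%) and below 1 in 145 (45.6%), and covered 1 in 76. Over all autosomal coding genes the shares were 27.2% above and 6.14% below, but short genes hold few fragments and rarely leave 1. Genes of 200 to 400 kb, which are closer in depth, gave 39.7% above and 22.4% below. A very long gene held between 88 and 914 fragments, with a median of 322.

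Among very long genes, the longer ones were lower. The 111 genes of 400 to 500 kb had a median level of 1.08, with 50 above 1 and 32 below. The median was 0.997 in 67 genes of 500 to 600 kb, 0.870 in 51 genes of 600 to 800 kb and 0.878 in 37 genes of 800 to 1000 kb. Of the 52 genes of 1000 kb or more, 6 were above 1 and 40 (76.9%) below, with a median of 0.748. The sequence around the genes fell too. The 100 kb outside each end had median levels of 1.01, 0.925, 0.854, 0.836 and 0.810 over these 5 groups of length. The median number of other coding genes within 500 kb was 6, 5, 4, 5 and 3. Within the very long genes, length was not tested apart from these surroundings. Spearman's rank correlation between level and length was -0.346 over the 318 genes. These points share libraries and depth, and the value is a description. Levels on both sides of the length limit overlapped. Just inside it, Fam189a1 (400 kb) stood at 1.38, Dst (401 kb) at 1.16 and Dock4 (401 kb) at 1.11, and just outside it, Adk (396 kb) stood at 1.20 and Ano4 (396 kb) at 0.961. Dst, a giant linker of the cytoskeleton, was at 0.598 in the libraries named 4 alone.

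Rbfox3 stood apart from all other very long genes. It encodes NeuN, a splicing regulator used as a marker of mature neurons, and spans 422 kb at chr11:118489760-118911597. Its 639 fragments gave a level of 2.70 (2.49 to 2.91). Across libraries the level was 1.11 at the lowest, in library 5-9, 2.79 at the median and 3.83 at the highest, in library 5-3, so that all 13 libraries were above 1. The 100 kb outside each end were also high, at 2.30, and 22 other coding genes lay within 500 kb.

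Camta1, a calmodulin-binding transcription activator of 802 kb at chr4:151059523-151861768, was second with 850 fragments and a level of 1.89 (1.76 to 2.02). Its libraries ran from 1.13 through a median of 1.91 to 2.69, all above 1. Grik4, a kainate-type glutamate receptor subunit at chr9:42518182-42945000, followed at 1.83 (1.66 to 2.01), with libraries from 0.957 through 1.59 to 2.72. The genes after it lay close together, and their intervals overlapped. Maml3, a coactivator of Notch, stood at 1.74 (1.58 to 1.92). Zfp536, a zinc-finger repressor of neuronal genes, Csmd2, a transmembrane protein with CUB and sushi domains, and Agap1, an activator of Arf GTPases, each stood at 1.72. Cacna1c, the pore-forming subunit of an L-type calcium channel, stood at 1.70 (1.56 to 1.84), with libraries from 1.27 through 1.70 to 2.28.

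At the low end, both Skint5 and Skint6 lie side by side on chromosome 4. They belong to a family of immunoglobulin-like membrane proteins known from skin and thymus. Skint5 (chr4:113477891-113999503) held 88 fragments, a level of 0.300 (0.241 to 0.370), and its libraries ran from 0 fragments in library 5-8 through a median of 0.287 to 0.590. Skint6 (chr4:112804616-113286973) stood at 0.336 (0.270 to 0.412), with libraries from 0 fragments through 0.303 to 0.766. Both genes were below 1 in all 13 libraries.

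Grik2, the other kainate receptor subunit among these genes (chr10:49093680-49790161), stood at 0.391 (0.331 to 0.458), with libraries from 0.167 through 0.381 to 0.539. No library of Grik2 reached the lowest library of Grik4. Cdh18, a type II cadherin, also stood at 0.391 (0.339 to 0.448). Luzp2, a leucine zipper protein, stood at 0.402, Csmd3 at 0.415, Klhl1, a kelch-like actin-binding protein of neurons, at 0.417 and Pcdh9, a protocadherin, at 0.429. Of these, only Klhl1 had a library above 1, at 1.12. The intervals of the 8 lowest genes overlapped with those of their neighbours in the order.

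**Figure D2:**
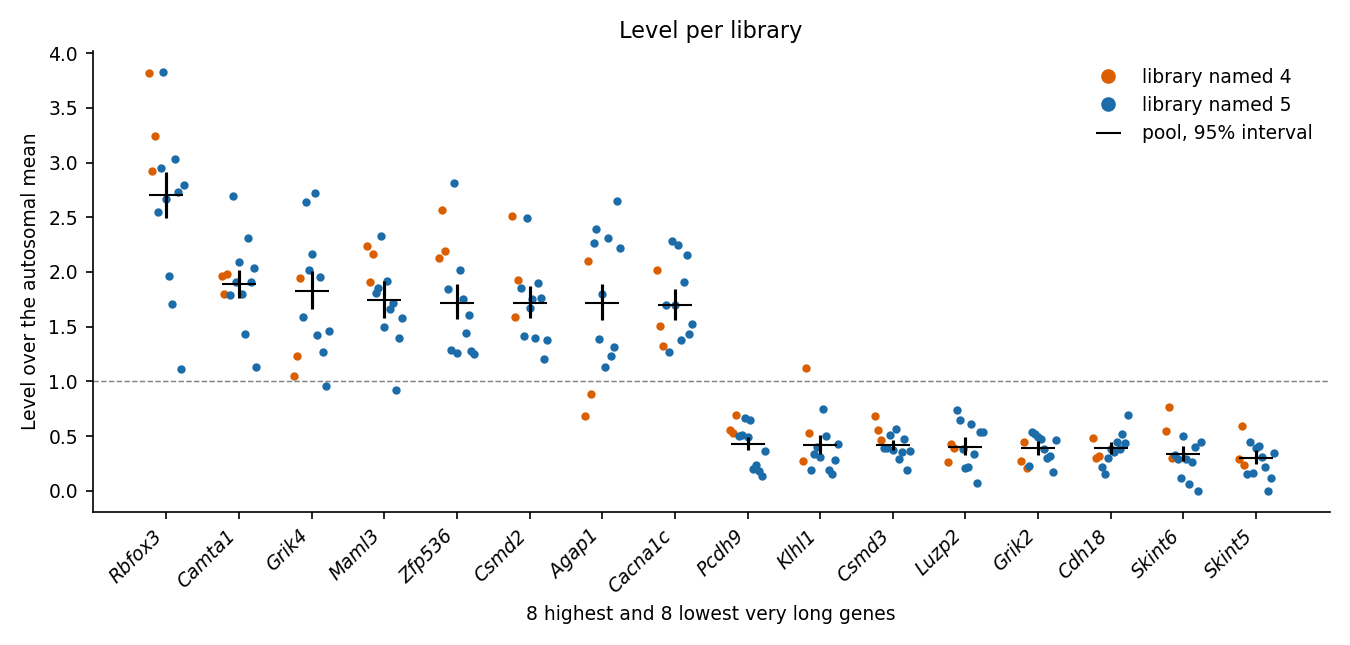
Level over the autosomal mean of the 8 highest and the 8 lowest very long genes in each of 13 libraries (orange, named 4; blue, named 5), with the pooled level and its exact 95% interval in black. Rbfox3 spans 1.11 to 3.83 between libraries, and the low genes stay under 1 in every library shown except Klhl1, which reaches 1.12 in 1.

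All of the 5 longest genes were low in every library. Ptprd, a receptor-type tyrosine phosphatase that organizes synapses, spans 2271 kb at chr4:75941237-78211742 and stood at 0.556 (0.515 to 0.598), with libraries from 0.422 to 0.848. Cntnap2, which clusters potassium channels on axons, spans 2241 kb at chr6:45060061-47301393 and stood at 0.617 (0.574 to 0.662), with libraries from 0.439 to 0.771. Lsamp, a limbic-system adhesion protein of 2197 kb, stood at 0.632 (0.589 to 0.678). Lrp1b, a receptor of the LDL receptor family with 2058 kb, stood at 0.565 (0.523 to 0.610), and Macrod2, an ADP-ribose hydrolase with 1998 kb, at 0.678 (0.630 to 0.728).

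Across the 318 genes, 11 were above 1 in all 13 libraries: Tshz2, Csmd2, Camta1, Cacna1c, Zfp536, Rora, Bcas3, Rbfox3, Rgs6, Atp8a2 and Arhgap26. Another 56 were below 1 in all 13. These are 3.46% and 17.6% of the very long genes, against 4.45% and 3.79% of the 607 genes of 200 to 400 kb, which hold fewer fragments. Fragments of all 14 libraries were present in 189 genes.

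Grouped by role, the adhesion molecules of neurons were the largest group and a low one. Many of these proteins bridge synapses or guide neurites. The list also holds the neuregulins Nrg1 and Nrg3 and the catenins Ctnna2, Ctnna3 and Ctnnd2. Of the 33 in the list, 24 were below 1 and 6 above, with a median of 0.780. Among all 318 very long genes, 45.6% were below 1 and 30.5% above, and the counts of each list that follows are to be read beside these shares. Csmd3 at 0.415 was lowest and its relative Csmd2 at 1.72 highest. The remaining family member among these genes, Csmd1, stood at 0.788 (0.732 to 0.848). The presynaptic neurexin Nrxn3 was at 0.803 (0.746 to 0.864), and the teneurin Tenm4 was at 1.50 (1.38 to 1.62). The neighbourhoods of these genes were poor in other genes, with a median of 2.00 coding genes within 500 kb.

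Cadherins, which join cells through calcium-dependent contacts, were 7, with 5 below 1 and 2 above, a median of 0.559 and a median of 0 other coding genes within 500 kb. Cdh18 at 0.391 and Cdh4 at 1.68 were the extremes. Cdh4 differed between the sets of libraries, with 0.874 in those named 4 and 1.86 in those named 5. The related Cdh12 stood at 0.446 (0.396 to 0.500), and Cdh13, a cadherin anchored to the membrane by a lipid, at 1.23 (1.14 to 1.31).

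Receptors for glutamate and GABA, the main fast transmitters of the brain, were 11, with a median of 0.761, 6 below 1 and 3 above. In a list of this size, these counts are close to the 45.6% below and 30.5% above among all very long genes. Apart from Grik4, those above were the NMDA receptor subunits Grin2a at 1.28 (1.14 to 1.44) and Grin2b at 1.14 (1.01 to 1.28). Grin2b was at 0.997 in the libraries named 4 alone. Among those below was the metabotropic receptor Grm5 at 0.446 (0.374 to 0.526).

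Axon guidance molecules were 10, with a median of 0.957, 4 above 1 and 5 below, from Sema3a, a secreted repellent, at 0.491 to the ephrin receptor Ephb1 at 1.43. Ephb1 was at 0.854 in the libraries named 4 alone. Receptor-type tyrosine phosphatases were 6, with a median of 0.999, 2 above and 2 below, from Ptprd at 0.556 to Ptprg at 1.37. Both lists were thus split around 1.

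Transcription and chromatin regulators, a list of 27 genes, held the most genes above 1. In share they were close to calcium and cation channels, with 4 of 8 above, and scaffold and cytoskeleton genes, with 8 of 17. The median of the regulators was 1.11, at 1.05 in libraries named 4 and 1.15 in those named 5. Of the 27 regulators, 14 were above 1 and 5 below. Besides Camta1, Maml3 and Zfp536, these included the nuclear receptor Rora at 1.53 (1.41 to 1.65), Tshz2, a zinc-finger homeobox factor, at 1.58 (1.43 to 1.75), and Nfia, a nuclear factor of brain and glia, at 1.36 (1.23 to 1.50). Zfp804b, a zinc-finger protein, was lowest at 0.520 (0.444 to 0.604). Close relatives differed: the forkhead factor Foxp1 stood at 1.16 (1.05 to 1.28) and Foxp2 at 0.527 (0.448 to 0.615). Foxp1 was at 0.802 (0.591 to 1.06) in the libraries named 4 alone. Likewise, Sox5 stood at 1.27 (1.18 to 1.37) and Sox6 at 0.958 (0.854 to 1.07).

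Calcium and cation channels were 8, with a median of 1.10, 4 above and 2 below. Cacna1c at 1.70 and Cacna1d at 1.40 (1.25 to 1.55), both pores of L-type channels, were the highest. Cacna1d was at 0.818 (0.576 to 1.13) in the libraries named 4 alone. Cacna2d1, an accessory subunit of such channels, was lowest at 0.699 (0.599 to 0.811), but at 1.03 where each library was given the same weight. The ryanodine receptors, which release calcium from internal stores, stood at 1.06 for Ryr2 and 1.02 for Ryr3, with intervals across 1. Ryr3 was at 0.545 (0.373 to 0.769) in the libraries named 4 alone and at 1.12 in those named 5.

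Scaffold and cytoskeleton genes were 17, with a median of 1.06, 8 above and 3 below, from Nav3 at 0.721 to Nav2, a guidance-related protein that binds microtubules, at 1.38. Nav2 was at 0.966 in the libraries named 4 alone. The membrane anchors Ank2 and Ank3 stood at 1.32 (1.20 to 1.45) and 1.12 (1.00 to 1.26). RNA-binding proteins were 5, with 2 above and 1 below, from Khdrbs2 at 0.531 to Rbfox3. Rbfox1, a relative of Rbfox3 that is 1528 kb long, stood at 1.06 (0.997 to 1.14).

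The list of genes known from common fragile sites, mostly in human cells, held 10 genes with a median of 0.763 and a median length of 1416 kb, 8 of them below 1 and 1 above. Naaladl2, a peptidase-like membrane protein, was lowest at 0.455 (0.408 to 0.505), and Wwox, an oxidoreductase with WW domains, was highest at 1.25 (1.15 to 1.35). Fhit, a hydrolase of dinucleoside polyphosphates, stood at 0.880 (0.820 to 0.943).

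The cyclic nucleotide list held 5 genes with a median of 1.02, from the kinase Prkg1 at 0.729 to the phosphodiesterase Pde4b at 1.21. The list of the dystrophin complex and muscle also held 5, with a median of 0.872, none above 1 and 3 below. Sgcz, a sarcoglycan, was lowest there at 0.451 (0.401 to 0.506), and Utrn, the relative of dystrophin called utrophin, was highest at 1.06 (0.940 to 1.19). The 177 genes in no list had a median of 0.943, with 51 above and 81 below, the same median as all 318.

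The lists also differed in features other than role. The median length was 974 kb for neuronal adhesion and 570 kb for transcription regulators. The flanks moved with the lists too, at a median of 0.747 beside adhesion genes and 1.04 beside transcription regulators. The role of length and position in these medians was not tested.

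Gene neighbourhood moved with the level. A very long gene had a median of 5.00 other coding genes within 500 kb, against 16 over all autosomal coding genes. The 84 very long genes with 0 to 2 such neighbours stood at 0.676 together (median 0.626), with 6 above 1 and 68 below. The level together was 0.907 with 3 to 5 neighbours, 1.03 with 6 to 10, 1.11 with 11 to 20 and 1.30 in the 6 genes with 21 or more. Over the 318 genes, the rank correlation between level and number of neighbours was 0.569, and that between number of neighbours and length was -0.206.

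Summed over their bases, very long genes were still lower than genes of 200 to 400 kb when both had the same number of neighbours. The ratio was 0.819 (0.800 to 0.838) at 0 to 2 neighbours, 0.906 (0.891 to 0.921) at 3 to 5, 0.900 (0.887 to 0.913) at 6 to 10, 0.888 (0.871 to 0.906) at 11 to 20 and 0.933 (0.895 to 0.972) at 21 or more. It was below 1 in 13, 13, 11, 13 and 9 of the 13 libraries. These sums give the longest genes the most weight. The median per gene was 0.626 against 0.861 at 0 to 2 neighbours and 1.17 against 1.39 at 21 or more. Between these the medians were closer: 0.944 against 0.994 at 3 to 5, 1.06 against 1.12 at 6 to 10 and 1.19 against 1.22 at 11 to 20. Base composition and unsequenced or unmappable bases were not tested, since no genome sequence was given.

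The level of a gene was close to that of the sequence around it. The rank correlation between the level of a gene and that of the 100 kb outside each of its ends was 0.799 (Pearson's r 0.791) over the 318 genes. Summed over all genes, the ratio of inside to flanks was 0.960 (0.949 to 0.972), but the median ratio per gene was 1.03, and without the bases of other coding genes the summed ratio was 1.01. No direction can therefore be given to this difference. The ratio lay above 1 in 48 genes (15.1%) and below 1 in 45 (14.2%). Among genes of 100 to 400 kb the shares were 19.2% above and 11.2% below.

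Some genes did differ from their surroundings. Plxdc2, a plexin-domain protein, stood at 0.838 in flanks of 0.471, a ratio of 1.78 (1.31 to 2.46). Sema5a, a transmembrane semaphorin, stood at 1.26 in flanks of 0.712, a ratio of 1.77 (1.38 to 2.29). In the other direction, Hpse2, a relative of heparanase, stood at 0.842 in flanks of 1.61, a ratio of 0.523 (0.433 to 0.634). These genes were singled out after their values were seen, as the extremes of this ratio. The lowest ratio, 0.337 (0.265 to 0.428), belonged to Zfp993, whose long stretches without any fragment are described with the 10 parts of the genes.

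**Figure D3:**
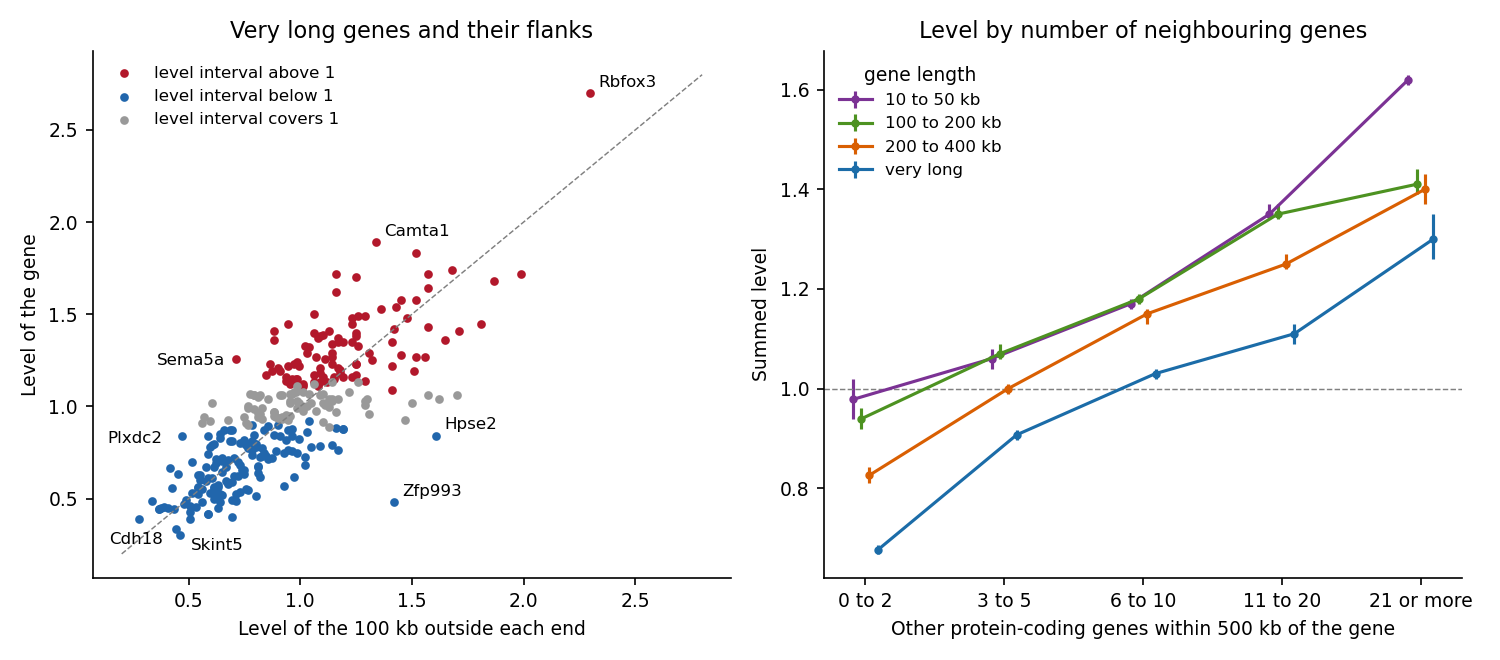
Left, level of each of the 318 very long genes against that of the 100 kb outside each of its ends, with a dashed line where both are equal. Right, summed level of genes of 4 length classes by the number of other protein-coding genes within 500 kb, with exact 95% intervals. In each class the level is higher with more neighbours, and very long genes are the lowest class at each number.

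Along the gene, the level was somewhat higher near both ends than in the middle. For the 243 genes with a known strand, the 10 equal parts from the start of transcription stood at 0.939, 0.910, 0.863, 0.872, 0.878, 0.884, 0.878, 0.906, 0.973 and 0.963. Part 3 was thus the lowest and part 9 the highest. The step of the same width before the gene stood at 0.876 and that after it at 0.915. Farther out before the gene, the steps stood at 0.963, 0.965, 0.945 and 0.934, from the outermost inwards. Farther out after it, they stood at 0.917, 0.944, 0.969 and 0.953, from the innermost outwards. The ends were thus about level with the sequence farther out, and the middle was lower than both. Folded from both ends, all 318 genes gave 0.946 in the outermost parts, 0.935 in the next and 0.877, 0.873 and 0.873 towards the middle.

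Both ends stood above the middle. The last part stood at 1.09 (1.07 to 1.12) of the middle 6 parts, with libraries from 0.950 to 1.26, and 11 of 13 were above 1. The last 2 parts together stood at 1.10 (1.08 to 1.12) of the middle, with libraries from 1.00 to 1.20, and 13 of 13 were above 1. The first part stood at 1.07 (1.04 to 1.09) of the middle, with libraries from 0.970 to 1.19 and 9 of 13 above 1, and the first 2 parts at 1.05 (1.03 to 1.07), with 10 of 13 above 1. In genes of 200 to 400 kb the first part stood at 1.03 (1.00 to 1.05) of the middle and the last at 1.05 (1.02 to 1.08). In genes of 100 to 200 kb these values were 0.995 (0.974 to 1.02) and 1.05 (1.03 to 1.08).

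At the listed starts of 202 genes, the first 50 kb inside stood at 1.09 (1.05 to 1.13) of the 50 kb outside, against 1.06 (1.05 to 1.06) at the starts of other coding genes. The restriction to starts within 5 kb of the gene's end was set after the data were seen, since some listed starts, such as that of Rbfox3, lie far inside the gene. RefSeq also lists starts of the same genes more than 10 kb inside, in 89 genes. Within 2.5 kb of these 141 inner starts the level was 1.02 (0.922 to 1.12), where the mean level of the genes that hold them was 1.000.

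**Figure D4:**
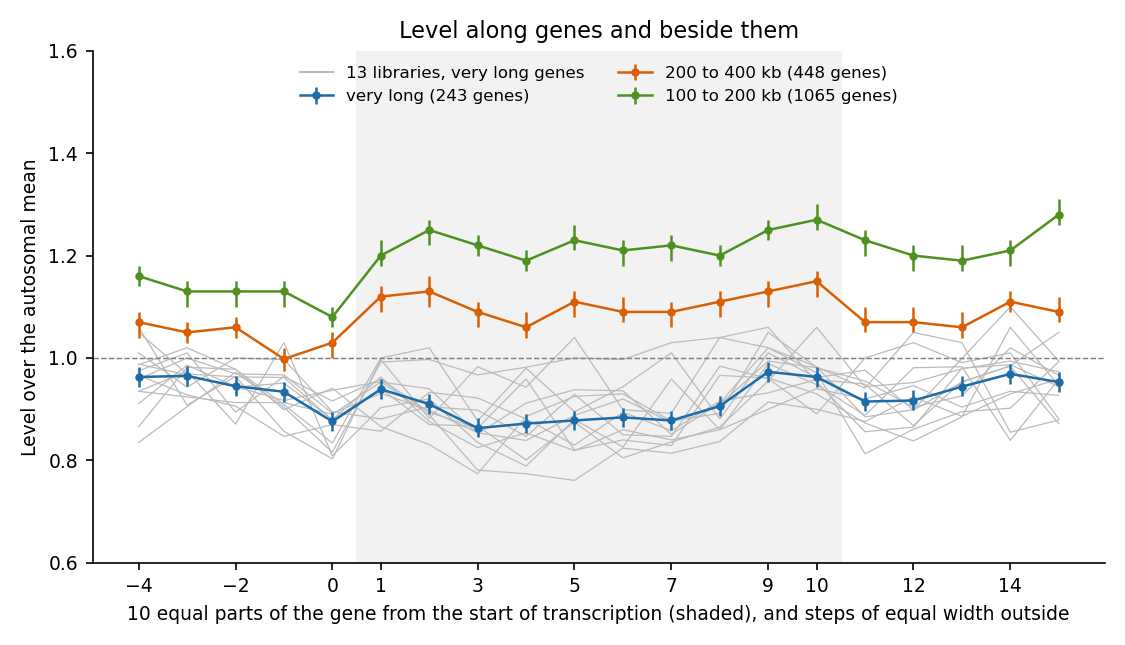
H3K4me1 level over the autosomal mean along 10 equal parts (shaded) and in steps of equal width outside, for very long genes (blue; grey lines, 13 libraries), genes of 200 to 400 kb (orange) and genes of 100 to 200 kb (green), with exact 95% intervals. Pooled over libraries, very long genes lie under 1 in all 10 parts, from 0.863 in part 3 to 0.973 in part 9.

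Single genes departed from this mean profile in both directions. Of 239 genes with a known strand and at least 100 fragments, the first part was above the middle in 39 (16.3%) and below it in 25 (10.5%). Genes of 100 to 400 kb, which hold fewer fragments, gave 7.44% and 4.88%. The last part was above the middle in 35 genes (14.6%) and below it in 18 (7.53%), against 8.90% and 4.02%.

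Among genes with a high first part, Cacna1e, the pore of an R-type calcium channel, had 1.98 there and a ratio of 2.08 (1.50 to 2.84) to its middle. Its gene level of 1.14 (1.02 to 1.27) was 1.10 (0.975 to 1.25) without library 5-4. The protocadherin Pcdh7 had 0.938 in its first part, a ratio of 2.06 (1.21 to 3.39), within a gene at 0.559. Dock1, an activator of Rac, had 1.66, a ratio of 1.92 (1.35 to 2.68). The highest ratios, 3.75 in Zfp993 and 2.81 in Dock2, rest on middles with parts that held no fragment.

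Among genes with a low first part, Nfia had 17 fragments there, a level of 0.559 and a ratio of 0.379 (0.218 to 0.619), while its other parts ran from 1.09 to 1.74. Tenm2, a teneurin of 1230 kb that binds latrophilins across the synapse, went from 0.419 in its first part to 1.52 in its last. Its gene level was 0.921 (0.851 to 0.996), and 0.948 (0.874 to 1.03) without library 4-5. The repressor Klf12 had a ratio of 0.471 (0.230 to 0.870), Hmcn1, an extracellular matrix protein, of 0.493 (0.240 to 0.910) and Camta1 of 0.502 (0.364 to 0.676). Camta1 stood at 1.04 in its first part and at 2.42 in parts 7 and 8, so that its inner parts were higher than the stretch next to the printed start.

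The 5 longest genes also had different shapes. Cntnap2 went from 0.365 in its first part to 0.897 in its last. Macrod2 had its highest part first, at 0.989, and its lowest, 0.534, in parts 5 and 8. Lrp1b, in genome order since its strand was not listed, had 0.977 in part 7, with 113 fragments, and no more than 0.605 in any other. That stretch also held the second-highest 10 kb bin of all very long genes, at chr2:41890001-41900000, with 36 fragments of 13 libraries and a level of 6.41 (4.49 to 8.87).

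Of all 3180 parts, 465 (14.6%) were above 1 and 913 (28.7%) below. In the parts of genes of 200 to 400 kb, which hold a median of 16 fragments, these shares were 17.4% and 8.71%. Only 3 reached 3 times the mean, and all belonged to Rbfox3: part 9 at 3.21, part 10 at 3.16 and part 7 at 3.12. The parts of Rbfox3 ran from 2.02 to 3.21, so the whole gene was high. All 10 parts were over 1 in 20 genes (6.29%) and under 1 in 81 (25.5%), against 10.2% and 6.92% of genes of 200 to 400 kb. Within a gene, the highest part was 2.25 times the lowest at the median.

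A few parts held no fragment at all: parts 3 and 4 of Dock2, part 2 of Maml2, part 6 of Skint6 and parts 4, 6 and 7 of Zfp993. The exact interval of a count of 0 reaches 0.118 in those of Dock2, 0.159 in Maml2, 0.136 in Skint6 and 0.137 in Zfp993. The longest stretch without a fragment was 145 kb in Dock2, an activator of Rac in leukocytes, 143 kb in Zfp993, a zinc-finger gene, and 92.1 kb in Maml2, a relative of Maml3. Stretches of 30 kb or more without a fragment occurred in 22 genes. When they were left out, an alternative chosen after the data were seen, Zfp993 went from 0.480 (0.400 to 0.570) to 1.01 (0.845 to 1.20) and Dock2 from 1.03 (0.922 to 1.15) to 1.38 (1.23 to 1.54). There, stretches that cross the end of a gene were left out too, and the autosomal mean was taken without such stretches. With stretches inside the gene alone left out and the mean unchanged, Zfp993 was at 0.964 and Dock2 at 1.40, so no side of 1 can be given for Zfp993. Whether such stretches are unmappable or unsequenced was not tested.

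**Figure D5:**
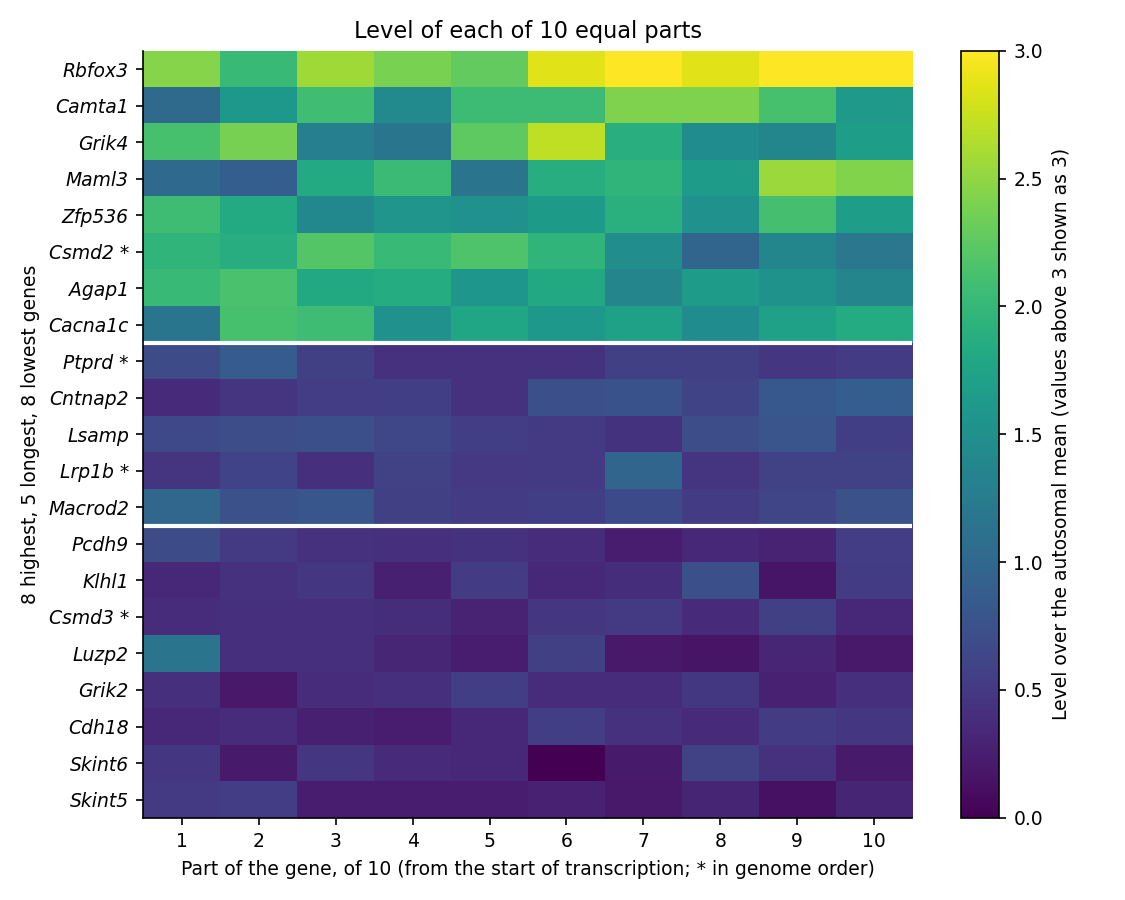
Level of each part of the 8 highest, the 5 longest and the 8 lowest very long genes, from the start of transcription, or in genome order for genes marked with an asterisk, on a colour scale in multiples of the autosomal mean that ends at 3. Rbfox3 is high along its whole length, Camta1 is lower in its first part than in any other, and 1 part of Skint6 holds no fragment.

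Enriched bins of 10 kb were scarcer in very long genes than elsewhere on the autosomes. A bin was called enriched at 3 to 10 times the autosomal mean given 20 or more fragments that came from 5 or more libraries. Since 20 fragments are already 3.56 times the mean, the limit in effect was 3.56 times. Of 22154 bins in very long genes, 49 were enriched, or 0.221% (0.164 to 0.292), against 0.903% in other coding genes, 0.336% outside coding genes and 0.505% of all autosomal bins. The limit is set against the autosomal mean and not against the level around a bin, so genes at a lower level reach it less often. Whether very long genes hold fewer peaks above their own surroundings was not tested. The 49 bins lay in 36 genes, and 10 of them in Rbfox3, 3 in Csmd2, 2 in Grik4 and 2 in Ncald. Those of Rbfox3 stood at 3.56 to 4.45, within a gene at 2.70 as a whole. The highest lay in Pde1c, a calcium-dependent phosphodiesterase, at chr6:56230001-56240000, with 54 fragments of all 14 libraries and a level of 9.61 (7.22 to 12.5), although the gene as a whole was at 1.02. In 6 of the 49 bins, more than 4 fragments of 1 library covered the same base, and in the bin of Pde1c up to 6 did. Empty bins made up 3.72% in very long genes, 1.87% in other coding genes and 5.26% outside coding genes.

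Short fragments were fewer in very long genes. Fragments under 120 bp made up 3.82% (3.71 to 3.94) there, 5.27% (5.21 to 5.33) in other coding genes and 4.85% (4.80 to 4.90) outside coding genes. The share was lower in very long than in other coding genes in 13 of 13 libraries. Fragments of 120 to 250 bp, the length of about 1 nucleosome, were equally frequent, at 31.3%, 31.1% and 31.1%. The median length was 327 bp in very long genes and 320 bp in other coding genes.

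Libraries named 4 and named 5 differed for some genes. Their intervals did not overlap in 42 of the 318 genes (13.2%), against 8.29% of 627 other genes of 200 kb or more, which hold fewer fragments. The libraries named 5 were higher in 32 of the 42 and those named 4 in 10. Agap1 stood at 1.22 in the libraries named 4 and at 1.82 in those named 5, and Zfp536 at 2.30 and 1.60. Among the genes described above, the intervals were also apart in Dst, Ptprg, Nav2, Ephb1, Cdh4, Cacna1d, Foxp1 and Ryr3, with the libraries named 5 higher, and in Rgs6 and Atp8a2, with the libraries named 4 higher. Over the 318 genes the medians were 0.848 and 0.954, and the rank correlation between the sets was 0.778. Batch, mouse and library set cannot be told apart here.

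By chromosome, the median level was highest on chromosome 9, at 1.20 over 16 genes, and lowest on chromosome 1, at 0.789 over 30 genes. Chromosome 9 as a whole stood at 1.10 and chromosome 1 at 0.945. Very few of the genes overlap each other. There were 4 overlapping pairs among 5 genes, of which Iqschfp and Schip1 on chromosome 3 share 561681 bp and so share their fragments. Other coding genes inside very long genes covered 1.89 Mb and stood at 1.03 (0.966 to 1.09), against 0.899 (0.894 to 0.905) for the remaining bases.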

How the data were processed

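Single mouse zygotes were profiled for H3K4me1 by CUT&Tag, and both batches were deposited in 1 table with 1 fragment per line. The deposited table gives each fragment's position, its library and a count, which was 1 on all 1424363 lines, so each line was counted once. The build is mm10, per the submitters' processing notes. How reads were aligned, filtered, freed of duplicates or shifted is not given in the sources used here, so how repeats or unmappable bases act on a level is not known. Of 16 libraries, 14 that reached 5000 fragments (autosomes, X and Y) were kept (7106 to 197312 fragments, median 96240), and the other 2 held 68 and 672.

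RefSeq (GRCm38.p6, the assembly behind mm10) gave gene spans and start sequences. Fragments were assigned by midpoint. A level is fragments per base over the autosomal mean, a chromosome's length being the distance between its outermost fragments. Intervals are exact at 95%: Poisson for levels, conditional binomial for ratios and Clopper-Pearson for shares. Strand was known for 243 of 318 genes, and the other 75 were used in genome order or folded. Flanks are 100 kb beyond each end. Genes named in the text are the 8 highest and 8 lowest, the 5 longest, the 3 on each side of 400 kb, the 5 highest and 5 lowest ratios of the first part to the middle 6 among genes with 100 fragments, and the highest and lowest of each of 12 lists, with further list members as examples chosen after their values were seen. Some genes are not reported here. The members, lists and rules were chosen with earlier results of these data known. Alternatives concerned the libraries, the length limit, the families left out, the base, the flanks, the number of parts and the bases of other genes. Counting and intervals were tested on simulated data. Python 3.11.15, numpy 2.4.6, pandas 2.3.3, scipy 1.17.1 and matplotlib 3.10.9 were used.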

Additional observations from a re-analysis of the deposited data

How the results depend on the processing

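The level of the very long genes together, 0.900, turned to 1.01 when the median of autosomal 10 kb bins with a fragment was the base. It was 0.868 in libraries named 4 alone, 0.907 in those named 5 alone, 0.851 for genes of 500 kb or more, 0.936 for 300 kb or more and 0.894 without stretches of 30 kb or more that hold no fragment (an alternative added after the data were seen). Leaving out 1 library at a time gave 0.895 (without 5-3) to 0.905 (without 4-5). The median level per gene was 0.848 in libraries named 4 alone, 0.872 for genes of 500 kb or more, and 0.936 to 0.953 without 1 library each. The number of genes above 1 was 42 in libraries named 4 alone, 47 at 500 kb or more and 161 at 300 kb or more, and 90 to 98 without 1 library each; the number below 1 was then 139 to 148. The first of 10 parts over the middle was 1.10 in libraries named 4 alone and 1.06 to 1.08 without 1 library each. Inside over flanks turned from 0.960 to 1.01 without bases of other protein-coding genes, and was 0.918 in libraries named 4 alone, 0.947 with flanks of 200 kb and 0.950 to 0.967 without 1 library each. The highest part of the profile was 1.19 times the lowest with 20 parts and 1.13 times with 10. At 4 times the mean, 13 bins were enriched in place of 49, a step from 3.56 times, where the minimum of 20 fragments sets the limit. Fewer libraries, genes or bins enter several of these alternatives by construction, and for the others the cause was not tested.

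For 48 named genes, 1068 of 1104 alternative values kept the call, with an interval above, below or across 1 as before. Another 24 lost the call, 6 gained one and 6 turned, that is, moved to the other side of 1 in a gene with a call. A change of side was not counted for genes whose interval covers 1. Dock1, for example, went from 1.04 to 0.991 without library 5-2. Those that turned were Cdh4 at 0.874, Dst at 0.598, Ephb1 at 0.854 and Nav2 at 0.966 in libraries named 4 alone, Cacna2d1 at 1.03 with libraries weighted equally, and Zfp993 at 1.01 without stretches that hold no fragment (0.964 with those inside the gene alone left out and the autosomal mean unchanged). Of 264 alternative list medians, 263 lay within the interval of the list's median over its genes, and the cyclic nucleotide list, at 0.692 in libraries named 4 alone, did not. In lists of 5 to 8 genes this interval runs from the lowest to the highest gene. A median can hardly leave such a range, so the count says little about how stable those lists are. Counts of genes by interval could not be given with libraries weighted equally. No paired analysis was possible because both batches share 1 table and the labels tie no library to a batch. Depth limits what a single part of a gene (median 32.0 fragments) or start site can show, and a count of 0 gives only an upper limit.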

Other observations

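Long genes outside the selection gave the following values. The 20 autosomal genes left out by symbol had a median level of 0.910, with 4 above 1 and 10 below. Slit3, a ligand that repels growing axons, was highest among them at 1.85 (1.70 to 2.00), and Kcnd2, the pore of a potassium channel, was lowest at 0.564 (0.480 to 0.657). Robo1 and Robo2, receptors for Slit ligands, stood at 0.715 (0.648 to 0.788) and 0.604 (0.554 to 0.658). Of the 14 genes of 400 kb or more on the X chromosome, which stood at 0.554 as a whole, 7 were below the mean of the X chromosome and 1 above it. Shares for shorter genes of the X chromosome are not given here, so these counts cannot be called particular to its long genes. The median of the 14 genes was 0.906 of the X mean. Frmpd4, a synaptic scaffold protein, was at 1.44 (1.32 to 1.57) of the X mean and Pcdh11x, a protocadherin, at 0.420 (0.333 to 0.522). Dmd, which encodes dystrophin and is the longest gene of all at 2390 kb, was at 0.865 (0.799 to 0.934) of that mean.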
